A study of Mus musculus with 14 samples.

Results

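Hepatic stellate cells made up 355 of the 4808 barcodes that passed the quality filters in 1 single-cell RNA library of digested mouse liver, or 7.38% (exact binomial 95% interval 6.66 to 8.16%). A barcode was taken as stellate when it had at least 200 genes, at most 20% of its unique molecular identifiers (UMIs, counted transcript molecules) in mitochondrial genes, at least 10 UMIs summed over Dcn, Colec11, Ecm1, Reln, Col14a1, Angptl6, Sod3 and Lrat, and at most 2 summed over the Kupffer cell genes Clec4f, Cd5l and Vsig4. The other 4453 barcodes are called the rest. Because expression chose the members, every difference between them and the rest of this library is a description, with no test.

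The library came from the perfused and digested normal liver of the strain C57BL/6 with no liver damage, and holds all cell types. The genes found in it were then read in 13 bulk libraries. Of these, 4 were quiescent, unplated stellate cells from undamaged liver of the strain LratCre+, TdTom+ in C57BL/6J, sorted for vitamin A and for TdTom that Cre under Lrat control had switched on, and 3 were whole undamaged liver of that strain. Another 3 were stellate cells of the strain Balbc given 10 µM UDP-glucose for 24 h in low-serum medium, and 3 were control cultures of the same strain kept for 24 h without it. The titles of the treated cultures name only UDP and their descriptions UDP-glucose, and the descriptions are followed here. UDP-glucose is a sugar nucleotide that, outside the cell, activates the receptor P2Y14, the product of P2ry14.

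Stellate cells are pericytes wrapped around the liver sinusoid, between its endothelium and the hepatocytes. At rest they store vitamin A as retinyl esters in lipid droplets, and they are a source of matrix, chemokines and growth factors for the cells around them. After liver injury they can become contractile, matrix-depositing myofibroblasts. Each function has its own gene group, and the groups are taken in turn.

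All 8 of the rule's markers were detected, and their own levels are given as the definition of the set. Dcn, a small proteoglycan that binds collagen, averaged 11681 CPM (the UMIs of a gene over all UMIs of the set, scaled to the usual common total) in stellate barcodes and 233 CPM in the rest. Ecm1, a secreted glycoprotein of the matrix, had 6095 CPM in stellate barcodes and 195 CPM in the rest, and Colec11, a soluble collectin, had 3099 CPM in stellate barcodes against 64.4 CPM in the rest. Sod3, the extracellular superoxide dismutase, Angptl6, an angiopoietin-like secreted protein, Reln, the glycoprotein reelin, and Col14a1, a fibril-associated collagen, lay between 1155 and 1760 CPM in stellate barcodes and between 28.2 and 54.1 CPM in the rest. Lrat, the enzyme that esterifies retinol for storage, was lowest, with 712 CPM in stellate barcodes and 27.8 CPM in the rest.

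Most members carried nearly the whole marker set. A UMI of Dcn was found in 354 of 355 members, of Ecm1 in 352 and of Lrat in 305 (85.9%). All 8 markers were present in 235 members (66.2%, 61.0 to 71.1%) and at least 7 in 312 (87.9%). The summed marker count ran from 10 to 334 UMIs per member, with a median of 68. Only 8 members had a sum of 10 to 12, and 23 barcodes lay just below the limit with 7 to 9. At the Kupffer limit, 17 members had 2 such UMIs and 78 had 1, and among barcodes with at least 10 marker UMIs 5 were left out with a Kupffer sum of 3. In total 62 barcodes carried at least 10 stellate marker UMIs but more than 2 Kupffer UMIs, with a median of 16, and they stand in the rest as mixed barcodes.

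The markers above are the rule's own, so they cannot test the label, and many members also carried endothelial RNA. By marker sums set after the data were seen, 102 members (28.7%, 24.1 to 33.7%) met the sinusoidal endothelial rule of at least 10 UMIs over 10 markers. The T cell rule was met by 11, the hepatocyte rule by 5, the plasmacytoid dendritic rule by 4 and the B cell rule by 2. The 237 (66.8%) that met none are called single-class members. That name refers to these rules only, which do not cover erythroid, mesothelial, plasma cell or MHC class II myeloid markers. The 102 had a median of 4126 UMIs and 49.5 marker UMIs, and the other 253 a median of 2783 UMIs and 83 marker UMIs. The program scrublet called 1 of 4808 barcodes a doublet and no member, so it did not work as a doublet caller here and none was removed. Its median score was 0.0786 in the 102 and 0.0279 in the 253. The part of joined or mixed cells in these values was not tested.

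Depth differed between the sets. Stellate barcodes had a median of 3162 UMIs (986 to 43717) and 1579 genes, and the rest 1919 UMIs (968 to 47577) and 1028 genes. Shares of barcodes with a UMI are therefore also given after each barcode was thinned to 1000 UMIs, which kept 353 stellate and 4382 other barcodes. Stellate genes were also counted at low level in other classes. Dcn had a UMI in 69 of 324 T cell barcodes (21.3%, median 2266 UMIs) at 101 CPM, under a hundredth of its stellate level.

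**Figure D1:**
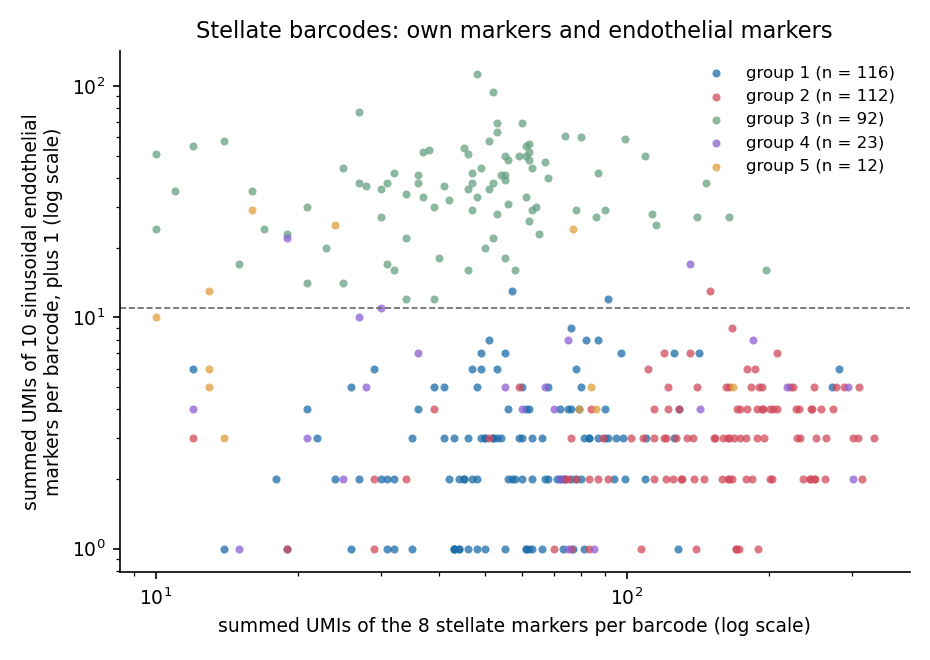
Each point is 1 of the 355 stellate barcodes, with the summed UMIs of the 8 stellate markers on the x axis and the summed UMIs of 10 sinusoidal endothelial markers plus 1 on the y axis, both on log scales, coloured by expression group. The dashed line marks the endothelial rule of 10 UMIs; all 92 barcodes of group 3 lie above it, while the median endothelial sum is 2 in groups 1 and 2.

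The promoters of Lrat, Colec11 and P2ry14 are shown because the first and second define the set and the third encodes the receptor the study is about. They are RefSeq sequence of build GRCm38.p6, the 250 bases before an annotated start, all on the minus strand and written 5′ to 3′ in the direction of the gene, with motif matches in capitals. Lrat lies at chr3:82903975-82904224 and holds the forkhead core TAAACA on its other strand (TGTTTA). Colec11 lies at chr12:28623331-28623580 and holds the GATA site AGATAA. The first of 4 annotated P2ry14 starts lies at chr3:59153493-59153742 and holds the E-box CATCTG and the GATA site, both on the other strand (CAGATG and TTATCT).
Lrat: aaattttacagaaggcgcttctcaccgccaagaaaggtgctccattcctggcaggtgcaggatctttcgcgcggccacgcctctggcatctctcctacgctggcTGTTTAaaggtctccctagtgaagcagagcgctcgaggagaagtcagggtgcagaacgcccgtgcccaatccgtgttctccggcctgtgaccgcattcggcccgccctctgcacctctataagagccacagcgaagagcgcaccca
Colec11: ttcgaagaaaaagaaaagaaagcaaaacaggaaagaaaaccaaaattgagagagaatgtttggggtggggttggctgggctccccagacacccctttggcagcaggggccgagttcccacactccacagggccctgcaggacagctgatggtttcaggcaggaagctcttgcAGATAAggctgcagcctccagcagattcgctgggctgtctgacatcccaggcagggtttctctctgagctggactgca
P2ry14: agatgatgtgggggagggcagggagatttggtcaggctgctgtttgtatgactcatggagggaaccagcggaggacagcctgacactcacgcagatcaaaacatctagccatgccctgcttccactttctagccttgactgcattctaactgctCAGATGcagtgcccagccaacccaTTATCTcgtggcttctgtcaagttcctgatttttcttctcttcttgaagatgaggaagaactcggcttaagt

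Across genes 5 motifs were searched on both strands. Of the 457 genes described next, 321 matched a RefSeq promoter. The E-box CATCTG stood in 45 of those 321 promoters, in 3913 (14.5%) of the 27025 genes of the promoter table and in 539 (9.59%) of the 5618 among them that passed the level filter. The forkhead core TAAACA stood in 9.03% against 12.0%, the GATA site AGATAA in 7.17% against 10.3%, the TATA box TATAAA in 8.72% against 13.0%, and the homeobox core TAATTA in 1.25% against 4.90%. Among the 5618 the shares of these 4 were 7.48%, 5.68%, 6.60% and 2.10% in the same order of motifs. A match describes letters and says nothing of binding.

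Of 7305 genes with at least 20 CPM in either set, rule genes left out, 457 (6.26%) were at least 4-fold higher in stellate barcodes and 192 (2.63%) at least 4-fold lower. The median ratio of stellate barcodes over the rest was 1.05. Of the 457 genes, 438 were higher in stellate barcodes than in each of 6 other classes, and 309 were at least 4-fold higher than in every one of them. The classes, taken by marker sums, were endothelial (2463 barcodes), hepatocyte (350), T cell (324), Kupffer (321), B cell (233) and plasmacytoid dendritic (48). There was 1 library, so the ratio intervals below cover counting error only.

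The genes with the 25 highest ratios had 57.4 to 647 CPM in stellate barcodes. Ogn, the leucine-rich proteoglycan osteoglycin, led with 57.4 CPM in stellate barcodes and 0.685 CPM in the rest, a ratio of 83.8 (95% interval 38.6 to 216). Tcf21, a helix-loop-helix factor of mesenchyme, had 469 CPM in stellate barcodes and 7.14 CPM in the rest (ratio 65.6, 51.4 to 84.9), and Hand2, of the same family, 647 CPM in stellate barcodes and 13.7 CPM in the rest (47.2, 39.4 to 56.9). Foxf1, a forkhead factor of mesenchyme, had 253 CPM in stellate barcodes and 4.31 CPM in the rest (58.8, 42.8 to 82.5). Hhip, a secreted trap for hedgehog ligands, had 188 CPM in stellate barcodes and 3.33 CPM in the rest, and Tnfrsf11b, the RANKL decoy osteoprotegerin, 251 CPM in stellate barcodes and 5.58 CPM in the rest. Mustn1 was the most frequent of the 25, in 272 of 355 members (76.6%), at 602 CPM in stellate barcodes and 10.2 CPM in the rest. Leaving the 62 mixed barcodes out of the rest kept all 25 at least 4-fold higher. That is no check of the ratios, because mixed barcodes were picked for stellate marker UMIs and carry stellate RNA. Mustn1, for instance, had 122 CPM in them.

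**Figure D2:**
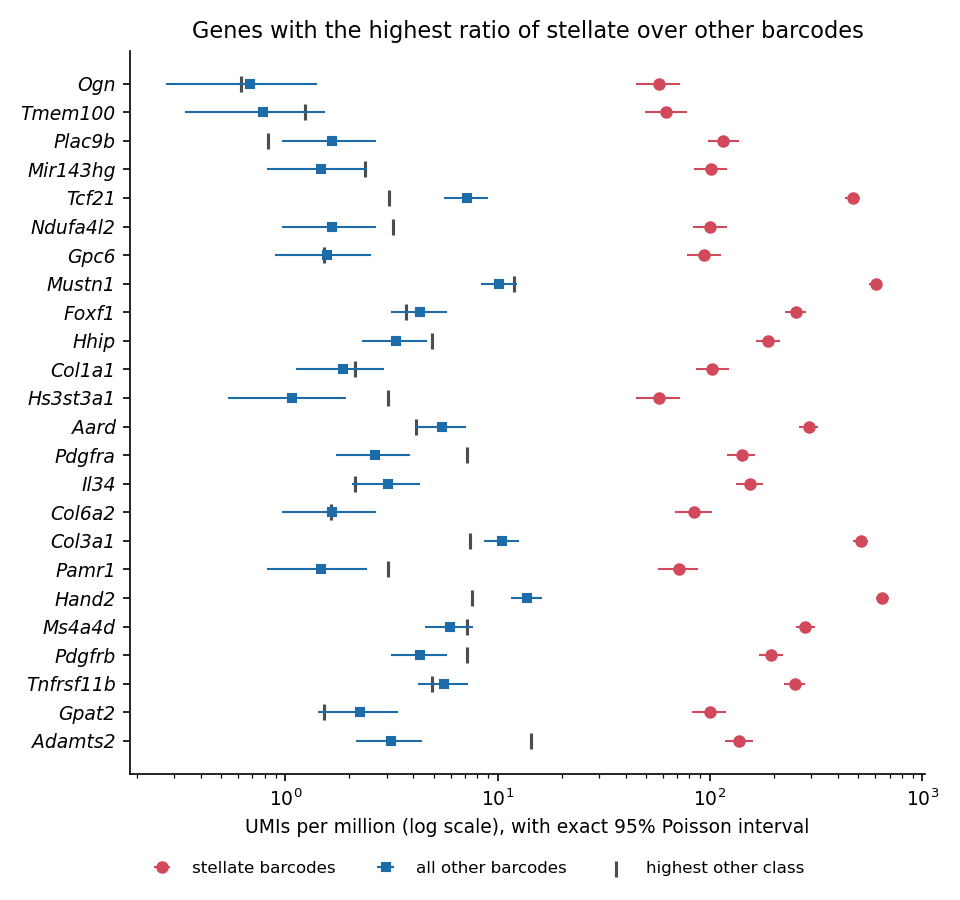
Genes with the highest CPM ratio run down the page; points give CPM on a log scale in stellate barcodes (red circles) and in all other barcodes (blue squares) with exact Poisson 95% intervals, and grey ticks the highest of 6 other classes. Every red point lies above its blue point by at least the 43.9-fold of Adamts2, and above the grey tick.

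Retinoid handling was mixed. Of 9 genes tested in this list 2 were higher and none lower, with a median ratio of 1.29. Rarres2, the secreted chemoattractant chemerin, had 1053 CPM in stellate barcodes, 72.6 CPM in the rest and 406 CPM in hepatocyte barcodes. Plin2, a coat protein of lipid droplets, had 226 CPM in stellate barcodes and 119 CPM in the rest, and Aldh1a1, a retinaldehyde dehydrogenase, 154 CPM in stellate barcodes and 82.2 CPM in the rest. Rbp4, the plasma retinol carrier that hepatocytes secrete, had 336 CPM in stellate barcodes and 810 CPM in the rest. It had a UMI in 85 of 355 members, with 252 UMIs in 1 of them. In group 5, described below, it had 4021 CPM, against 75.3 CPM in the other members. No UMI of Stra6, Crabp1 or Crabp2 was counted in members.

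Matrix genes were the largest block. Of 14 collagen chains tested 9 were higher and none lower (median ratio 23.1), and so were 18 of 23 proteoglycans and other matrix proteins (10.9) and 9 of 13 matrix enzymes and inhibitors (8.40). Col3a1, the fibrillar collagen III, had 512 CPM in stellate barcodes and 10.5 CPM in the rest (ratio 48.9, 39.8 to 60.6) and a UMI in 255 members. Col1a1, a chain of collagen I, had 103 CPM in stellate barcodes and 1.86 CPM in the rest, with a UMI in 76 members (21.4%), and Col1a2, its partner chain, 326 CPM in stellate barcodes and 10.7 CPM in the rest. The basement membrane chains Col4a1 and Col4a2 did not reach 4-fold: Col4a1 had 361 CPM in stellate barcodes and 188 CPM in the rest, with 330 CPM in endothelial barcodes.

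Among other matrix genes the leucine-rich proteoglycan Bgn (biglycan) was highest, at 3343 CPM in stellate barcodes and 350 CPM in the rest, and Prelp, of the same family, had 1624 CPM in stellate barcodes and 105 CPM in the rest. Lum (lumican) had 647 CPM in stellate barcodes and 14.8 CPM in the rest. Sparc, a collagen-binding glycoprotein, had 2043 CPM in stellate barcodes and 976 CPM in endothelial barcodes and stayed under 4-fold. The enzymes were led by Pcolce, which helps remove the procollagen tail, with 519 CPM in stellate barcodes and 39.5 CPM in the rest, and by the collagen chaperone Serpinh1 with 465 CPM in stellate barcodes and 77.9 CPM in the rest. Of the inhibitors, Timp2 had 394 CPM in stellate barcodes and 46.9 CPM in the rest, whereas Timp3 had 309 CPM in stellate barcodes and 874 CPM in endothelial barcodes.

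Stellate barcodes held the bulk of several secreted signals. Of 28 secreted factors tested 17 were higher and none lower (median ratio 7.94). Cxcl12, the chemokine that binds Cxcr4, was found in 351 members at 4286 CPM, against 125 CPM in the rest. It ran from 0 to 41 UMIs per member with a median of 14. Gdf2, which encodes BMP9, a ligand of the endothelial receptor Alk1, had 546 CPM in stellate barcodes and 17.6 CPM in the rest, with a UMI in 284 members (80.0%) and in 4 of 324 T cell barcodes (1.23%). Bmp10, the closest relative of Gdf2, had 165 CPM in stellate barcodes and 6.95 CPM in the rest, and Bmp5 379 CPM in stellate barcodes and 12.8 CPM in the rest.

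Growth factors for neighbouring cells, and proteins that bind growth factors, ranged widely in level. Rspo3, which strengthens Wnt signals, had 542 CPM in stellate barcodes, 100 CPM in endothelial barcodes and 72.4 CPM in the rest. Hgf, the hepatocyte growth factor, had 210 CPM in stellate barcodes and 22.6 CPM in the rest, with a UMI in 177 members. Igfbp3, a binding protein for insulin-like growth factors, had 549 CPM in stellate barcodes and 15.6 CPM in the rest, while its relative Igfbp7 had 8363 CPM in stellate barcodes and 6952 CPM in endothelial barcodes.

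Receptor genes were higher in part, as transcripts, which do not show protein or a response to a signal. Of 38 receptors tested 17 were higher and 1 lower, with a median ratio of 3.37. Pth1r, the parathyroid hormone receptor, had 822 CPM in stellate barcodes and 23.8 CPM in the rest, and Ramp1, a subunit of the receptor for the sensory peptide CGRP, 787 CPM in stellate barcodes and 34.1 CPM in the rest. Ramp1 also had 414 CPM in plasmacytoid dendritic barcodes, with a UMI in 28 of 48. Vipr1, a receptor for vasoactive intestinal peptide, had 697 CPM in stellate barcodes and 41.3 CPM in the rest. Each of the 3 was found in 294 to 298 members. Agtr1a, the angiotensin II receptor, had 487 CPM in stellate barcodes and 19.1 CPM in the rest, and Ednrb, an endothelin receptor, 420 CPM in stellate barcodes and 31.5 CPM in the rest. The receptors for platelet-derived growth factor were less frequent: Pdgfrb had a UMI in 157 members and 194 CPM in stellate barcodes against 4.31 CPM in the rest, and Pdgfra in 127 members at 141 CPM in stellate barcodes against 2.64 CPM in the rest. Il6st, the shared subunit of interleukin 6 family receptors, had 459 CPM in stellate barcodes and 935 CPM in endothelial barcodes.

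P2ry14 was present in stellate barcodes but was neither abundant nor confined to them. It had 87 UMIs in 67 of 355 members (18.9%, 14.9 to 23.3%), or 70.3 CPM (56.3 to 86.8), and 80 of 4453 other barcodes had a UMI (1.80%), at 10.2 CPM. The ratio was 6.91 (5.14 to 9.28). Single-class members had 102 CPM, with a UMI in 52 of 237 (21.9%). Of the members, 288 had no UMI, 52 had 1, 11 had 2, 3 had 3 and 1 had 4, and a UMI count of 0 at this depth does not show that a cell lacks the transcript. Members with a UMI had a median of 3374 UMIs and 94 marker UMIs, and members without one 3146 UMIs and 62 marker UMIs.

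Plasmacytoid dendritic barcodes had more P2ry14 than stellate barcodes, at 250 CPM (174 to 347) with a UMI in 26 of 48 (54.2%). Their counting intervals and those of stellate barcodes did not overlap. Kupffer barcodes followed stellate barcodes with 19.7 CPM (13 of 321), then endothelial barcodes with 2.06 CPM (8 of 2463) and hepatocyte barcodes with 1.07 CPM (1 of 350), and the intervals of the last pair overlap. No UMI was counted in 324 T cell barcodes or in 233 B cell barcodes. Taking 3 barcodes as the limit that a count of 0 allows, up to 0.926% of T cell and 1.29% of B cell barcodes could carry a UMI at this depth, which does not limit the share of cells that express the gene. After thinning to 1000 UMIs, 8.78% of stellate barcodes and 0.776% of the rest had a P2ry14 UMI.

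**Figure D3:**
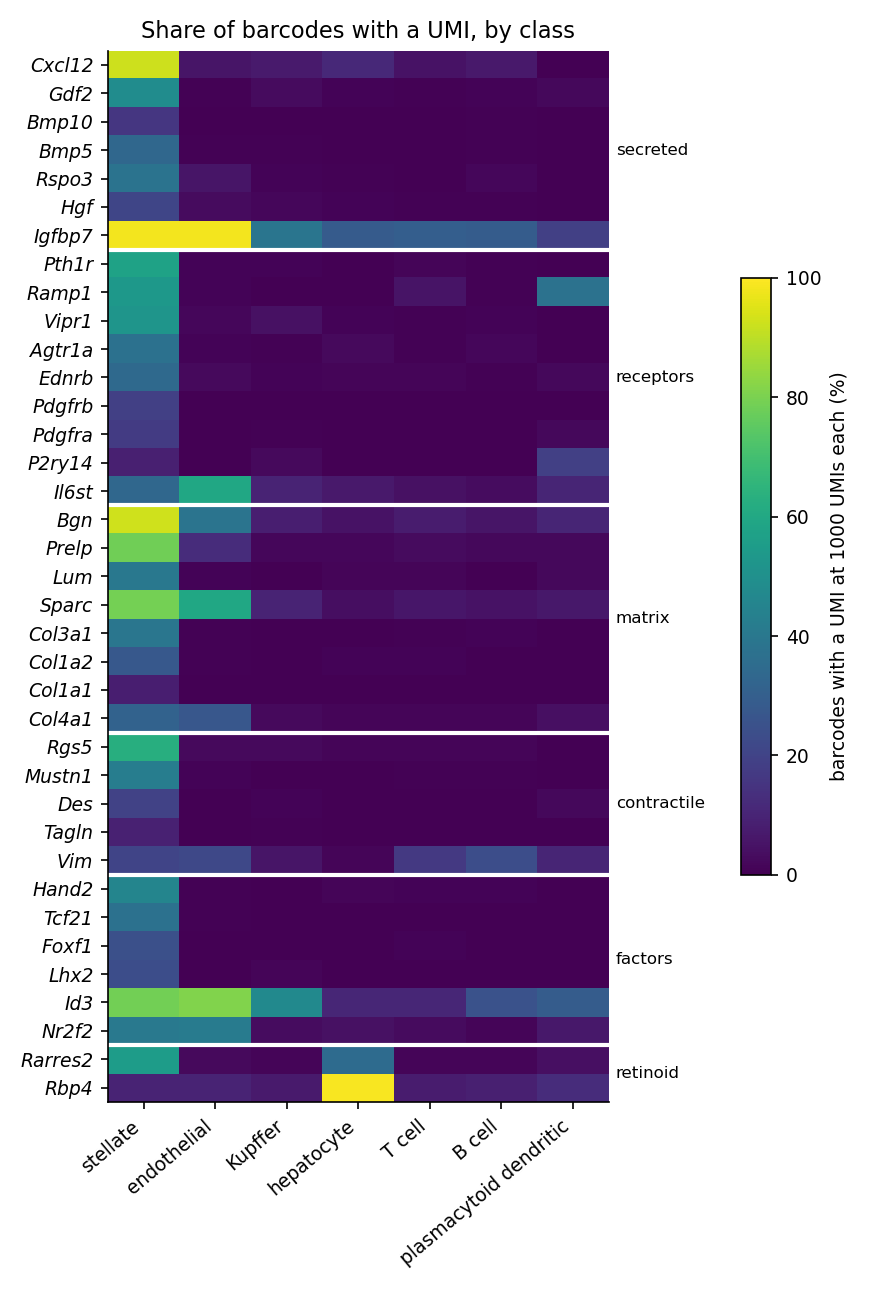
Colour gives the share of barcodes with at least 1 UMI of a gene (0 to 100%) after each barcode was thinned to 1000 UMIs, for stellate barcodes (left column) and 6 other classes, with genes in rows grouped by role. Most rows are highest in the stellate column, for instance 45.6% for Hand2, but genes with few UMIs, such as P2ry14 and Col1a1, stay dark there. Igfbp7, Id3 and Il6st are also seen in the endothelial column, Rbp4 in hepatocytes, and P2ry14 and Ramp1 in plasmacytoid dendritic barcodes.

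The genes that make, move or use UDP-glucose gave no 4-fold call in stellate barcodes. None of the 8 tested was higher or lower, and their median ratio was 0.703, beside 1.05 for all genes tested. Of all 7305 genes tested 6.26% were higher and 2.63% lower, so the lack of a call among 8 genes does not set them apart. Ugp2, which makes UDP-glucose from UTP and glucose 1-phosphate, had 61.4 CPM in stellate barcodes and 74.0 CPM in the rest. Of 3 ectonucleotidases tested, Nt5e (CD73), which turns extracellular AMP into adenosine, was higher, with 57.4 CPM in stellate barcodes and 3.43 CPM in the rest, and Entpd1 was lower.

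Of 15 contractile genes tested 7 were higher and none lower (median ratio 3.96). Rgs5, a regulator of G protein signals in pericytes, had 990 CPM in stellate barcodes and 39.1 CPM in the rest, and Des, the intermediate filament desmin, 190 CPM in stellate barcodes and 5.97 CPM in the rest. Tagln, an actin-binding protein of smooth muscle, had 120 CPM in stellate barcodes and 3.23 CPM in the rest, in 83 members. Acta2, the smooth muscle actin of activated stellate cells, had 13 UMIs in 4 members, 10 of them in 1 barcode. Of the activation list 4 of 9 genes tested were higher (Col1a1, Cyr61, Postn and Tagln) and Spp1 was lower. Timp1 and Lox, both outside the level filter, had 6 UMIs and 1 UMI in all members.

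Of 25 transcription factors tested 7 were higher (median ratio 1.35): Hand2, Tcf21, Foxf1, Lhx2, Gata6, Tbx20 and Nr1h4. Lhx2, a LIM homeobox factor, had 268 CPM in stellate barcodes and 6.65 CPM in the rest, and Nr1h4, the bile acid receptor FXR, 246 CPM in stellate barcodes and 58.7 CPM in hepatocyte barcodes. Id3 and Nr2f2 were shared with endothelium, Id3 at 1931 CPM in stellate and 2075 CPM in endothelial barcodes. Of 8 neural-type genes tested 6 were higher, among them the adhesion molecule Ntm (292 CPM in stellate barcodes, 10.6 CPM in the rest) and the neurotrophin receptor Ngfr (137 CPM in stellate barcodes, 4.11 CPM in the rest).

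None of 17 early response genes tested passed 4-fold (median ratio 1.31, beside 1.05 for all genes tested). Only 6.26% of all genes tested were higher, so the lack of a call among 17 genes does not set them apart. Junb, a subunit of AP-1, was nearest among the genes named, with 626 CPM in stellate barcodes and 207 CPM in the rest. Fosb, another subunit, had 38.8 CPM in stellate barcodes and 20.1 CPM in the rest, and the heat shock gene Hspa1a 8.08 CPM in stellate barcodes and 3.33 CPM in the rest.

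Outside the lists stood 358 of the 457 higher genes. The most abundant of them, chosen after their values were seen, included Plvap, the protein of endothelial fenestral diaphragms, with 2157 CPM in stellate barcodes and 180 CPM in endothelial barcodes. Plvap was found in 343 members and reached 2995 CPM in the 237 single-class members. Pam, which amidates peptides, had 1738 CPM in stellate barcodes and 117 CPM in the rest, Tgfbi, a matrix protein induced by TGF-beta, 1674 CPM in stellate barcodes and 80.1 CPM in the rest, and Ifitm1, an interferon-induced membrane protein, 1604 CPM in stellate barcodes and 45.2 CPM in the rest. Fcna, the lectin ficolin A, had 1437 CPM in stellate barcodes, below the 2430 CPM of Kupffer barcodes.

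Markers of other cell types were also counted in the members. The 10 sinusoidal endothelial markers summed to 3383 CPM in stellate barcodes, 8340 CPM in the rest and 743 CPM in single-class members, and ran from 0 to 111 UMIs per member. The 14 hepatocyte markers summed to 8145 CPM in stellate barcodes and 18203 CPM in the rest, and ran from 0 to 5790 UMIs per member. The 7 erythroid markers, which no class rule covers, summed to 13692 CPM in stellate barcodes and 47384 CPM in the rest. They reached 23084 CPM in single-class members. Per member they ran from 0 to 6497 UMIs with a median of 5. The 9 Kupffer markers, which include the 3 genes the rule limits, summed to 327 CPM in stellate barcodes and 2732 CPM in the rest, a direction that the rule itself sets. All 4 mesothelial markers tested were higher, but 53 of 54 Upk3b UMIs, 37 of 40 Msln UMIs and 37 of 39 Krt19 UMIs came from 3 barcodes each. The 3 members with at least 3 mesothelial UMIs had no Lrat UMI. Of the 8 vascular smooth muscle markers the 2 tested, Mustn1 and Tagln, were higher. The list summed to 739 CPM in stellate barcodes and 14.6 CPM in the rest, and 148 members had at least 3 of its UMIs. Within that list Actg2, Cnn1, Pln and Rergl were at 0.

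The members fell into 5 groups by clustering of their own 2000 most variable genes, described without a test. Group 1 (116 barcodes) and group 2 (112) held almost all single-class members, 114 and 109 of them. Group 3 (92) held none, and its leading genes were the endothelial genes Kdr, Aqp1, Ptprb, Fcgr2b and Dnase1l3. Group 4 (23) was led by immunoglobulin and MHC class II genes and Igfbp6, with 498 of the 545 Jchain UMIs in 1 barcode and 141 of the 148 Igfbp6 UMIs in 3. Group 5 (12) was led by the hepatocyte products Alb, Serpina3k and Serpina1e. Group 1 was led by globins, but 4185 of the 4834 Hba-a2 UMIs lay in 3 barcodes. At a Leiden resolution of 1 there were 7 groups, and the 92, 23 and 12 barcodes of groups 3 to 5 stayed together. With 30 principal components there were again 5 groups, but 18 of the 23 barcodes of group 4 stayed together, 4 joined group 3 and 1 joined group 1, and 10 barcodes of group 1 and 8 of group 2 changed places.

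Groups 1 and 2 differed in the amount of the marker genes themselves. The groups were made from the same counts, so the intervals below cover counting error only and test no difference. Dcn, Ecm1, Lum and Anxa1 were among the leading genes of group 2. The median marker sum was 58.5 UMIs in group 1 and 166 in group 2, at median depths of 2496 and 3082.5 UMIs. Dcn had 8134 CPM in group 1 and 25386 CPM in group 2 (ratio 0.32, counting interval 0.31 to 0.34), and Ecm1 5156 CPM in group 1 and 13348 CPM in group 2. Lum had 424 CPM in group 1 and 1447 CPM in group 2, and Anxa1, a calcium-dependent membrane-binding protein, 65.2 CPM in group 1 and 385 CPM in group 2. The order was not general: Lrat had 961 CPM in group 1 and 888 CPM in group 2 (1.08, 0.92 to 1.27), and Reln 1669 CPM in group 1 and 1489 CPM in group 2. Vipr1 ran the other way, with 1079 CPM in group 1 and 565 CPM in group 2, as did Colec10, a collectin, with 808 CPM in group 1 and 450 CPM in group 2.

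Lists for position along the sinusoid separated the 2 groups only in part. Summed CPM of 7 genes listed as portal-side was 1248 in group 1 and 1989 in group 2, and of 8 genes listed as central-side 7297 in group 1 and 6828 in group 2. Igfbp3 made up most of the portal-side difference, at 564 CPM in group 1 and 1071 CPM in group 2, while Il34 had 225 CPM in group 1 and 259 CPM in group 2 and Rgs4 84.7 CPM in group 1 and 88.3 CPM in group 2. P2ry14 had 68.4 CPM in group 1, 147 CPM in group 2 and 28.4 CPM in group 3. The ratio of group 1 over group 2 was 0.47 (0.27 to 0.79), an interval that covers counting error only and is no test.

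**Figure D4:**
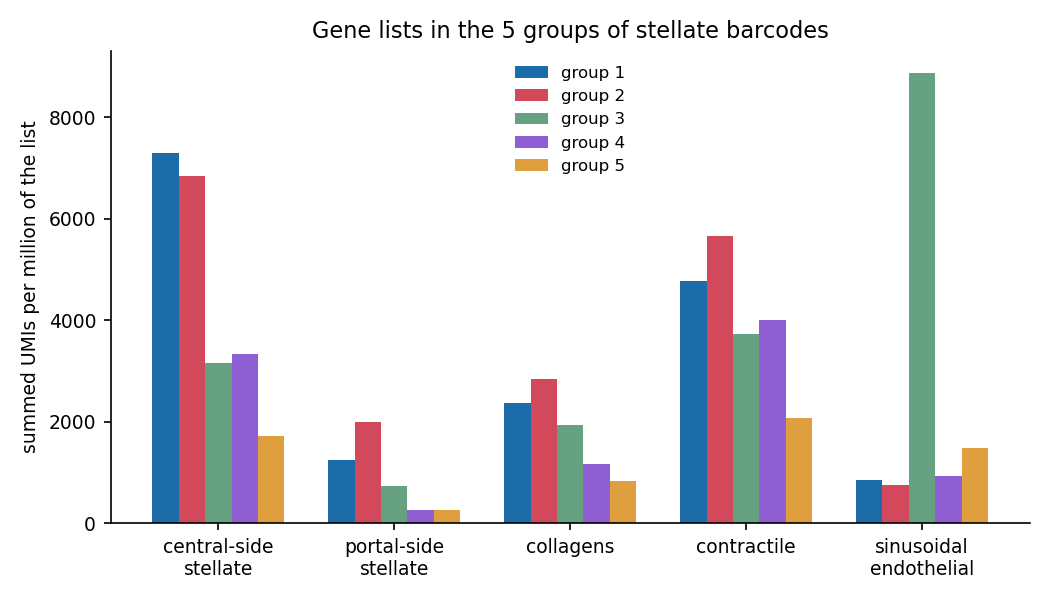
Bars give summed CPM of 5 gene lists in the 5 expression groups of stellate barcodes, from 0. The endothelial list stands at 8862 in group 3 and at 756 to 1479 in the others; the portal-side list is highest in group 2 (1989).

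The bulk libraries gave a separate reading of the 457 stellate-high genes, since no bulk value enters the rule for the members. The rule itself was chosen with earlier results of these data known. Quiescent stellate cells were set against whole liver with limma on log2(TPM + 1), where TPM is transcript abundance scaled to a common library total, and a call needed a Benjamini-Hochberg adjusted p under 0.05 with a log2 fold change of 1 or more in either direction. In the bulk data fewer cells of a type and less RNA per cell cannot be told apart. Whether libraries came from separate animals or cultures is not labelled, and the p-values cover the spread between libraries, some or all of which may be technical. Quiescent cells and liver also stand in separate tables, so table and group cannot be told apart.

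Of the 457 genes 446 had a bulk row and 439 were tested: 434 were higher in quiescent stellate cells and 1 was lower. This was against a large shift of all genes, of which 67% were higher and 10.9% lower of 12643 tested, and the groups did not overlap for 437 of the 439, against 91.1% of all genes. The median log2 fold change was 5.60 for the stellate-high genes and 1.62 for all genes tested. Median-of-ratios rescaling moved the median of all genes to -0.03 and turned the split of all calls to 3248 higher and 3465 lower. The stellate-high genes then had a median of 4.26, and 403 of the 435 calls held.

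All 8 markers of the rule were higher in every quiescent library than in every liver library. Dcn had 20489, 22331, 24271 and 23222 TPM in the 4 quiescent stellate libraries and 20.2, 45.2 and 47.0 TPM in the 3 liver libraries (log2 9.29, SE 0.25, limma adjusted p = 3.88e-11). The other 7 markers had log2 fold changes from 8.16 for Angptl6 to 9.34 for Reln. Lrat drove the Cre used in the sort, so its difference is part of how those cells were chosen. Another gene model covers 16.8% of the exon bases of Angptl6, and no source used here states the use of strand.

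Of 33 secreted factors tested in bulk 28 were higher in quiescent stellate cells and 3 lower, with a median log2 fold change of 5.56, and of 44 receptors 36 were higher and 5 lower (median 4.71), beside 67% higher and 10.9% lower of all genes. After median-of-ratios rescaling the counts were 26 and 5 for secreted factors and 33 and 7 for receptors. Cxcl12 had 7090, 5870, 5959 and 6396 TPM in quiescent stellate cells and 53.2, 95.2 and 65.9 TPM in liver (log2 6.49, limma adjusted p = 5.20e-11). Gdf2 had 1841, 1570, 1464 and 1979 TPM in quiescent stellate cells and 1.05, 2.63 and 2.27 TPM in liver. Every quiescent library was above every liver library for either gene. Vipr1 averaged 1646 ± 262 TPM in quiescent stellate cells (SD, n = 4) and 3.92 ± 1.81 TPM in liver (n = 3), and Pth1r 919 ± 64.0 TPM in quiescent stellate cells and 2.50 ± 0.914 TPM in liver. Hand2 averaged 441 ± 115 TPM in quiescent stellate cells and 1.69 ± 0.566 TPM in liver (log2 7.35, limma adjusted p = 7.46e-11), and another gene model covers 19.6% of its exons. Plvap averaged 6489 ± 370 TPM in quiescent stellate cells and 10.3 ± 3.76 TPM in liver. Fcna averaged 4549 ± 432 TPM in quiescent stellate cells and 9.57 ± 3.68 TPM in liver.

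Among early response genes Fosb averaged 3282 ± 474 TPM in quiescent stellate cells (SD, n = 4) and 0.979 ± 0.632 TPM in liver (n = 3) (log2 10.74, limma adjusted p = 4.79e-12), whereas in the single-cell library it had 38.8 CPM in stellate barcodes and 20.1 CPM in the rest. All 25 early response genes tested in bulk were higher, with a median log2 fold change of 5.88, beside 67% of all genes and their median of 1.62. After median-of-ratios rescaling 22 of the 25 were called higher (median 4.02, all genes -0.03), and after quantile normalisation 24. Hspa1a differed among the quiescent libraries themselves, at 3009, 538, 1324 and 1110 TPM, and was under 1 TPM in each liver library. Another gene model covers 19.0% of its exons. The part of cell isolation and sorting in these values was not tested.

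The genes that were not higher in bulk included those of other cells. Krt19, a keratin of bile ducts and mesothelium, was the 1 gene called lower, at 0.183 ± 0.131 TPM in quiescent stellate cells and 2.16 ± 1.69 TPM in liver (log2 -1.30, limma adjusted p = 0.00133). It was not tested without liver replicate 1 or replicate 3, where its mean fell under 1 TPM. Adra1b, an alpha-1 adrenergic receptor, averaged 18.9 ± 2.97 TPM in quiescent stellate cells and 29.9 ± 3.66 TPM in liver. Gsta4 and Gstt1, glutathione transferases, had groups that overlapped, and L3hypdh had a log2 fold change of 0.82, under the limit. Endothelial markers were also higher in the quiescent libraries, where Clec4g had 146, 282, 197 and 96.7 TPM against 7.45, 22.3 and 14.5 TPM in liver. All 10 sinusoidal endothelial markers were called higher (median log2 fold change 3.25), beside 67% of all genes and their median of 1.62. After median-of-ratios rescaling 7 were, beside 3248 higher and 3465 lower of all 12643 genes. Of 9 Kupffer markers 4 were called higher, a smaller part than of all genes, and 0 lower (median 0.94). After that rescaling 0 of them were higher and 4 lower. A higher call in bulk therefore does not by itself tell stellate from endothelial RNA.

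**Figure D5:**
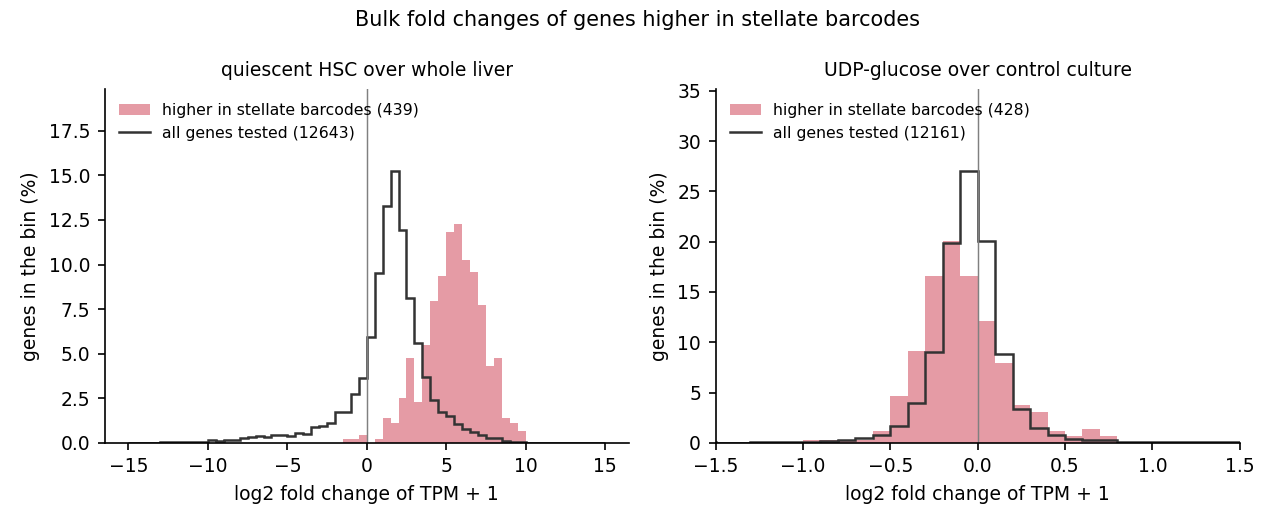
Histograms of log2 fold changes of TPM + 1, in percent of genes per bin, for genes at least 4-fold higher in stellate barcodes (filled) and for all genes tested (line), in quiescent stellate cells over whole liver (left) and UDP-glucose over control cultures (right). On the left the filled histogram is centred at 5.60 against 1.62 for all genes; on the right the medians are -0.11 and -0.05.

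Few stellate-high genes were called with UDP-glucose, but at larger shares than among all genes. The cultures were compared to see whether the ligand of P2Y14 moves these genes, with adjusted p under 0.05 as the call. Of 428 tested, 11 (2.57%) were higher in UDP-glucose cultures and 5 (1.17%) lower, against 0.428% and 0.181% of all 12161 genes. The groups of 145 of the 428 (33.9%) did not overlap, against 16.3% of all genes. The difference between these shares was not tested. The median log2 fold change was -0.11 for the stellate-high genes and -0.05 for all genes tested.

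The higher genes were led by actin and myosin partners. Tagln had 2996, 2936 and 2712 TPM in UDP-glucose cultures and 1666, 1669 and 1659 TPM in control cultures (log2 0.79, SE 0.06, limma adjusted p = 0.00183), but another gene model covers 67.9% of its exons. Myl9, a myosin light chain, had 883, 875 and 913 TPM in UDP-glucose cultures and 510, 528 and 539 TPM in control cultures (log2 0.76, limma adjusted p = 0.00136). Tpm2, a tropomyosin, averaged 297 ± 9.22 TPM in UDP-glucose and 185 ± 6.50 TPM in control cultures, and Cyr61, a secreted matricellular protein, 755 ± 51.6 TPM in UDP-glucose and 461 ± 20.6 TPM in control cultures. All UDP-glucose libraries were above all control libraries for these 4 genes. Anxa1, Prss23, Bmp10, Fblim1, Ppp1r14a, Pkig and Des completed the 11, with log2 fold changes of 0.38 to 0.69; another gene model covers 22.9% of the exons of Prss23. Acta2, too low in stellate barcodes to be among the 457, had 695, 646 and 699 TPM in UDP-glucose cultures and 258, 258 and 276 TPM in control cultures (log2 1.36, limma adjusted p = 0.000154).

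Ifitm1, Ggt5, Agtr1a, Sucnr1 and Ctsk were the 5 lower genes. Ifitm1 averaged 89.4 ± 5.02 TPM in UDP-glucose and 154 ± 22.4 TPM in control cultures (log2 -0.77, limma adjusted p = 0.0342), and Agtr1a 178 ± 5.46 TPM in UDP-glucose and 232 ± 11.2 TPM in control cultures. Ggt5, a gamma-glutamyl transferase, Sucnr1, the succinate receptor, and Ctsk, a collagen-degrading protease, had log2 fold changes of -0.53, -0.48 and -0.39. Of the 8 markers only Colec11 was called, at 69.8, 64.2 and 72.2 TPM in UDP-glucose cultures and 109, 116 and 103 TPM in control cultures (log2 -0.67, limma adjusted p = 0.0123). Col1a1 averaged 125 ± 4.99 TPM in UDP-glucose and 115 ± 12.7 TPM in control cultures, and the groups overlapped. P2ry14 had 252, 276 and 269 TPM in UDP-glucose cultures and 201, 218 and 194 TPM in control cultures, which did not overlap but missed the call (log2 0.38, limma adjusted p = 0.0649).

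Many of these calls were lost when 1 library was left out, fewest without control replicate 2. Without control replicate 1, 2 or 3 the stellate-high genes called were 6, 10 and 5 higher and 0, 3 and 0 lower, and without UDP-glucose replicate 1, 2 or 3 they were 5 higher and 0 lower each time. Tagln, Myl9, Tpm2, Anxa1 and Cyr61 were called in every one of these fits, and so was Acta2. The Colec11 call was kept only without control replicate 2.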

How the data were processed

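Single-cell values are UMI counts per gene and barcode in the matrix as deposited. Bulk values are TPM as deposited in 3 tables, which the authors made with kallisto per the labels. The submitters' processing notes name the tools kallisto 0.44.0, bcl2fastq 2.19 and Cell Ranger (no version) and, as builds, GRCm38 and mm10. No source used here states how strand and barcodes were handled.

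The library held 5063 barcodes, 28692 genes and 12101368 UMIs. Filters took out 207 barcodes under 200 genes and 63 over 20% mitochondrial UMIs, with some failing both. UMIs were summed over the barcodes of a set and divided by the set's total (1236937 in members, 10218949 in the rest) to give CPM. Intervals (exact Poisson, Clopper-Pearson, exact conditional binomial) are at 95% and cover counting error only. With 1 library no test was made. A gene counted as higher at a ratio of at least 4 and as lower at the inverse, with a set at 0 put at 3 UMIs. The members were grouped in scanpy 1.11.5 (Python 3.11.15) with Leiden clustering at resolution 0.5, from 15 neighbours in 15 principal components of 2000 variable genes.

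Bulk TPM keep no read depth, so that depth is unknown. Of the rows, 26 with calendar dates for symbols were left out and 35171 kept. limma 3.58.1 in R 4.3.3 was fitted to log2(TPM + 1) with a variance trend, two-sided, over genes whose mean reached 1 TPM, each comparison on its own libraries. Fold changes on this scale understate the change of low genes. Both procedures were checked on simulated data. The bulk check moved a small set of genes, with the spread of the comparison group, so it could not test a shift of most genes.

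Named genes were the 8 markers, P2ry14, the 25 highest ratios among genes of at least 50 CPM in at least 10% of members, the most abundant genes in stellate barcodes of each list (up to 5 per role and 3 per cell type) and outside the lists (10), and the 5 leading genes of each group; not all are printed, and some genes are not reported here. Genes outside this rule, chosen after their values were seen, are named for a function, a count of calls or a zero. The members, lists and rules were chosen with earlier results of these data known. Alternatives covered the marker and Kupffer limits, barcode filters, thinning, level filters, pseudocount, scaling and leaving out each bulk library.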

Additional observations from a re-analysis of the deposited data

Results flagged for a closer look

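Of 41 genes reported in the quiescent stellate libraries, 1 had a library far from the others. Rgs5 stood at 3768.5 TPM in quiescent replicate 4, while the other 3 libraries lay between 2473.6 and 2679.7 TPM. The gap to the nearest of them was 0.841 of the whole range. With this many genes examined, a single such gap can arise by chance. All 4 values lay far above the liver libraries, the highest of which had 4.96 TPM.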

How the results depend on the processing

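No called value of a named gene changed sign under the alternatives tried, but in quiescent cells against liver the all-gene median turned to -0.03 under median-of-ratios rescaling, and L3hypdh, not called as reported, turned to -1.09. The stellate share became 8.67% with at least 5 marker UMIs, 5.41% with 0 Kupffer UMIs, 8.67% with no Kupffer limit and 4.93% for members that met no other class rule. The count of higher genes moved only with the level filter, to 297 at 50 CPM and 1537 with none. The count of lower genes was less stable: it became 103 and 438 with at least 5 and 20 marker UMIs, 333 with 0 Kupffer UMIs, 95 with no Kupffer limit, 811 for members that met no other class rule, 366 with the mean of per-barcode CPM, 406 after thinning, 80 at 50 CPM and 533 with no minimum. The settings for members of no other class and for the mixed barcodes were chosen after seeing the data.

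In quiescent cells against liver, median-of-ratios rescaling gave 3248 higher and 3465 lower genes and quantile normalisation 3547 and 2943. Stellate-high genes called lower then numbered 6 and 4, against 0 with at least 5 TPM and 0 to 1 when a library was left out. Acta2 lost its call under both scalings, at 0.73 and 0.63. With UDP-glucose, fitting without a filter left 24 higher and 6 lower genes, 7 and 0 of them stellate-high. The stellate-high genes called lower were 9 with at least 5 TPM and 3 after median-of-ratios rescaling, which left 12 lower genes in all. Leaving out 1 library gave 17 to 46 higher and 0 to 18 lower genes, 5 to 10 and 0 to 3 of them stellate-high. P2ry14 passed the threshold with UDP-glucose only under median-of-ratios rescaling (log2 0.43). The cause of these shifts was not tested. No paired analysis was possible because the labels give no replicate numbers shared between groups.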
